A study of Mus musculus with 6 samples.

Results

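The genes described here encode the constitutive proteasome of 4T1, a mouse breast cancer cell line. They were taken by name from a table of 56448 genes: symbols beginning Psma, Psmb, Psmc, Psmd or Psmg followed by a digit, with the regulators Psme3, Psme4 and Psmf1, and without the immunoproteasome genes Psmb8, Psmb9 and Psmb10 and symbols marked as pseudogenes. Of 44 such names, 42 had a mean of at least 1 TPM (a measure of transcript abundance scaled to transcript length and library total) over the 6 libraries, and these are the members. The testis gene Psma8 was listed at 0 in each library and the thymus gene Psmb11 reached at most 0.05 TPM, and both were left out. One member, Psmc3ip, is taken only through its spelling: it encodes a partner protein of meiotic recombination factors and not a proteasome subunit, so 41 members have a proteasome role.

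The series compared 4T1 cells labelled LV2 (3 libraries) with 4T1 cells labelled in9 (3 libraries), all grown in the same serum-containing medium. The design text speaks of a lentiviral line with lasting knockdown of the microRNA miR-9 and of controls, but neither label is spelled out and nothing states which group is the control, whether a line came from 1 clone or whether replicates were separate cultures. P-values therefore rest on the spread between samples that may be technical repeats. Differences are in9 minus LV2 throughout. The design text also names a microarray and the extraction protocol names tissue, whereas the rest of the labels, and the values, fit RNA sequencing of cultured cells. In bulk samples, fewer cells of a type and less RNA per cell cannot be told apart.

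The proteasome is the main protease of the cytosol and nucleus, and it degrades proteins that carry ubiquitin chains. Its barrel-shaped 20S core is built of stacked rings: alpha subunits form the gate through which substrates enter, and beta subunits enclose the chamber in which they are cut. The 19S cap binds ubiquitin chains, removes them, and unfolds the substrate with a ring of ATPases. Dedicated chaperones assist assembly, and other activators and inhibitors can bind the core in place of the cap. Proteasome genes are known to be induced together by the transcription factor NRF1, the product of Nfe2l1, through antioxidant response elements in their promoters.

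The depth of the libraries is unknown, because TPM values keep no record of it. In9 replicate 1 was set apart from its group on the first principal component, which held 28.1% of the variance. Its score was -2.70, against 26.1 and 27.8 for in9 replicates 2 and 3. LV2 replicate 1 also lay apart from its group, at -6.98 against -22.0 and -22.2 for LV2 replicates 2 and 3. Results are given with and without in9 replicate 1. LV2 libraries held 2067 to 2089 TPM of the epithelial genes Krt8, Krt18, Epcam and Cdh1 together, and in9 libraries 1957 to 1998 TPM. The leukocyte markers together reached 27.7 to 28.9 TPM (LV2) and 33.7 to 40.6 TPM (in9), nearly all of it Cd68, while Ptprc, Cd3e and Itgam were at 0 to 0.12 TPM in each library. The 4 fibroblast markers together reached 4.56 to 6.52 TPM (LV2) and 7.75 to 8.31 TPM (in9), nearly all of it Pdgfra, with Lum listed at 0 throughout. The 3 endothelial markers summed to 1.71 to 1.95 and 1.97 to 2.17 TPM. The part of other cell types in the results was not tested.

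Sequences of miR-9 and of its seed matches in the members are shown because miR-9 is the molecule the series set out to lower. Each arm is printed with its seed, bases 2 to 8, in capitals, from RefSeq on GRCm38.p6, the build that mm10 names. The locus of Mir9-1 at chr3:88215613-88215635 holds the 5p arm, and Mir9-2 and Mir9-3 encode the same mature sequences. The first arm below is the one searched for.

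mmu-miR-9-5p: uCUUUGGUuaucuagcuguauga

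mmu-miR-9-3p: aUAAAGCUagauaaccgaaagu

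As the 3' UTR of each gene, the longest stretch after an annotated stop codon in any GENCODE M21 transcript was taken. In it, 4 of 42 members held a 7-base or 8-base match to the miR-9-5p seed. The shorter matches searched were ACCAAAG, which pairs with bases 2 to 8, and the match to bases 2 to 7 followed by an A, which is CCAAAGA. Both joined make the longer one, ACCAAAGA. That is 9.52% of members, against 24.96% of the 10994 tested genes with an annotated 3' UTR. The members' 3' UTRs so taken were also shorter, with a median of 475.5 bases against 1347 bases. Transcripts with an early stop codon were not set aside, so such a stretch can be coding sequence in another transcript. Whether that holds for the sites below was not checked against protein sequences. Each stretch printed below has a reading frame without a stop codon, so its letters do not exclude coding sequence. The count of 4 members may therefore include coding sequence, and the 8-base match in Psmb1 is not established as a 3' UTR site. For Psmb1 the stretch taken was 1281 bases, against a length of 1758 bases in the deposited table. For Psmf1 the stretch of 3014 bases exceeded the length of 1384 bases in the deposited table. The sites are printed on the strand of the gene with the match in capitals. They lie in Psma3 (plus strand, chr12:70995489-70995518), Psmb1 (minus strand, chr17:15476052-15476081), Psmc6 (plus strand, chr14:45349679-45349705) and Psmf1 (minus strand, chr2:151718048-151718077), and the one in Psmb1 is the 8-base match.

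Psma3: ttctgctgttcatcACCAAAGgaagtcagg

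Psmb1: ggatctgcatcgtgACCAAAGAgggcatca

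Psmc6: tcagtttcataaatACCAAAGgactaa

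Psmf1: acaaggatgatttcACCAAAGcaggcacac

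None of these 4 genes was called in either direction, with log2 fold changes of -0.07 for Psma3, -0.02 for Psmb1, 0.02 for Psmc6 and -0.23 for Psmf1 (SE 0.07, 0.06, 0.04 and 0.10). A match is a description of the letters and not evidence of binding.

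The comparison between in9 and LV2 cells found no member changed at the threshold, and most members sat slightly below LV2. Of 42 members, 33 had a negative log2 fold change and 9 a positive one, with a median of -0.04, whereas 63.7% of the 13406 tested genes had a positive value and their median was 0.06. Fold changes were computed as log2(TPM + 1). The members ranged from -0.28 (Psmg4) to 0.09 (Psmd11), so the widest difference on either side was well under a doubling. None was called higher and none lower by limma at an adjusted p under 0.05, against 0.821% of all tested genes called higher and 0.194% called lower. At an unadjusted p under 0.05 no member was higher and 5 were lower, namely Psme3, Psmb7, Psmb6, Psmb4 and Psmc3ip, where the shares of all tested genes were 13.6% and 5.86%. Groups did not overlap for 2 members above LV2 and 11 below it, with shares of 17.4% and 8.08% over all tested genes.

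The direction depended on scaling for the members near 0. After trimmed-mean scaling 1 member was positive and the median was -0.12, with -0.01 over all tested genes. After quantile normalization 11 were positive, and 12 were once mitochondrial transcripts were left out. In each of these settings the members' median was below that of all tested genes.

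In9 replicate 1 was set apart from these same values and lay nearest to LV2, so leaving it out favours calls by construction. Over all genes, calls went from 110 higher and 26 lower to 971 and 509. Adjusted p-values without that library, here and below, are therefore descriptions and no further support. Without in9 replicate 1, limma called 8 members lower and none higher, where 3.8% of all tested genes were called lower and 7.25% higher. These 8 were the alpha subunit genes Psma1 and Psma6, the beta subunit genes Psmb3, Psmb4, Psmb6 and Psmb7, the activator gene Psme3 and the assembly chaperone gene Psmg4. None of the 17 cap genes taken by the name rule was among them. The rule leaves out the cap subunit genes Adrm1 and Sem1, and without in9 replicate 1 both were called lower (adjusted p = 0.0292 and 0.0256 in limma). At an unadjusted p under 0.05, 12 members were then lower and 2 higher, beside 8.65% and 22.5% of all tested genes. Without any other single library no member was called, and 2 to 4 were lower at an unadjusted p under 0.05: 2 without LV2 replicate 2, LV2 replicate 3 or in9 replicate 3, 3 without in9 replicate 2 and 4 without LV2 replicate 1.

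**Figure D1:**
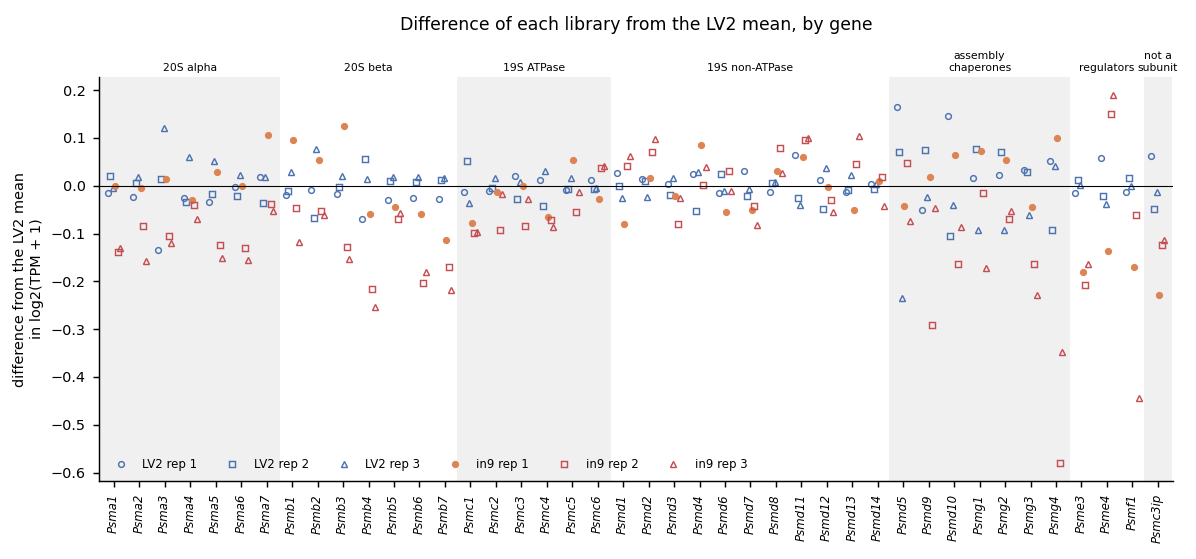
Difference of each library from the LV2 mean in log2(TPM + 1), 1 column per member, grouped by role; each point is 1 library and the line at 0 is the LV2 mean. In9 replicates 2 and 3 lie below 0 for each of the 14 core subunit genes, while in9 replicate 1 (filled) lies below it for 8 of them.

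As a share of library TPM, the 42 members made up 0.764% to 0.775% in LV2 libraries and 0.767%, 0.731% and 0.729% in in9 replicates 1, 2 and 3. In sum this was 7641 to 7751 TPM for LV2 libraries, and 7674, 7307 and 7287 TPM for in9 libraries. In9 replicate 1 thus lay inside the LV2 range and the other 2 in9 libraries below it.

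In both groups the libraries spread more in the summed core than in the summed cap, and more so in in9. The 14 core genes summed to 3629, 3680 and 3777 TPM in LV2, and in in9 to 3723, 3411 and 3365 TPM, so in9 replicate 1 fell among the LV2 libraries and in9 replicates 2 and 3 below all of them. Summed over the 17 cap genes, which leave out Adrm1 and Sem1, the values were 3484, 3443 and 3470 TPM in LV2 and 3449, 3440 and 3460 TPM in in9, groups that overlap. The mean TPM per core gene over that per cap gene was 1.27, 1.30 and 1.32 in LV2 and 1.31, 1.204 and 1.18 in in9. Whether core and cap differ in their response was not tested.

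**Figure D2:**
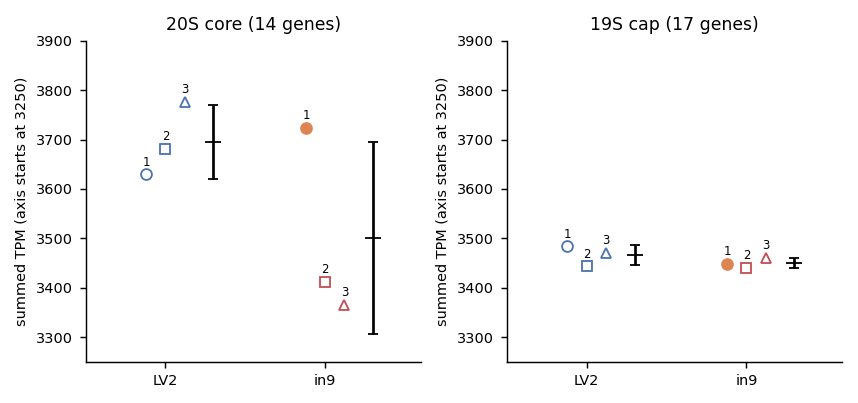
Summed TPM of the 14 core genes and of the 17 cap genes in each library, with the replicate number above each point and the mean ± SD of 3 libraries beside it; the axis does not start at 0. In9 replicates 2 and 3 lie at 3411 and 3365 TPM for the core, below the LV2 libraries, while the cap sums of both groups overlap.

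The alpha ring genes had a median of 227 TPM, against 176 TPM over all members, and 6 of 7 had a negative log2 fold change (median -0.08). Psma6 was the most abundant member of all, at 481, 475 and 490 TPM in LV2 and 482, 440 and 433 TPM in in9. Its in9 replicates 2 and 3 were below each LV2 library and in9 replicate 1 was not, and the log2 fold change was -0.10 ± 0.05 (SE, adjusted p = 0.349 in limma), the lowest of the ring. Psma7 was close behind in level, at 405, 390 and 405 TPM in LV2 and 431, 390 and 386 TPM in in9. Its groups overlapped, with a log2 fold change of 0.01 ± 0.05 that was -0.05 without in9 replicate 1 and -0.07 after trimmed-mean scaling. Psma2 was the least abundant of the ring, at 81.9, 83.7 and 84.4 TPM in LV2 and 83.0, 78.6 and 74.6 TPM in in9. The 7 alpha genes spanned 5.76-fold in mean TPM although the ring holds 1 copy of each subunit, and TPM rests on the transcript length that the authors assigned. Psma1, Psma3, Psma4 and Psma5 had log2 fold changes of -0.09, -0.07, -0.05 and -0.08. None of the 7 was called, and the groups overlapped for each.

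**Figure D3:**
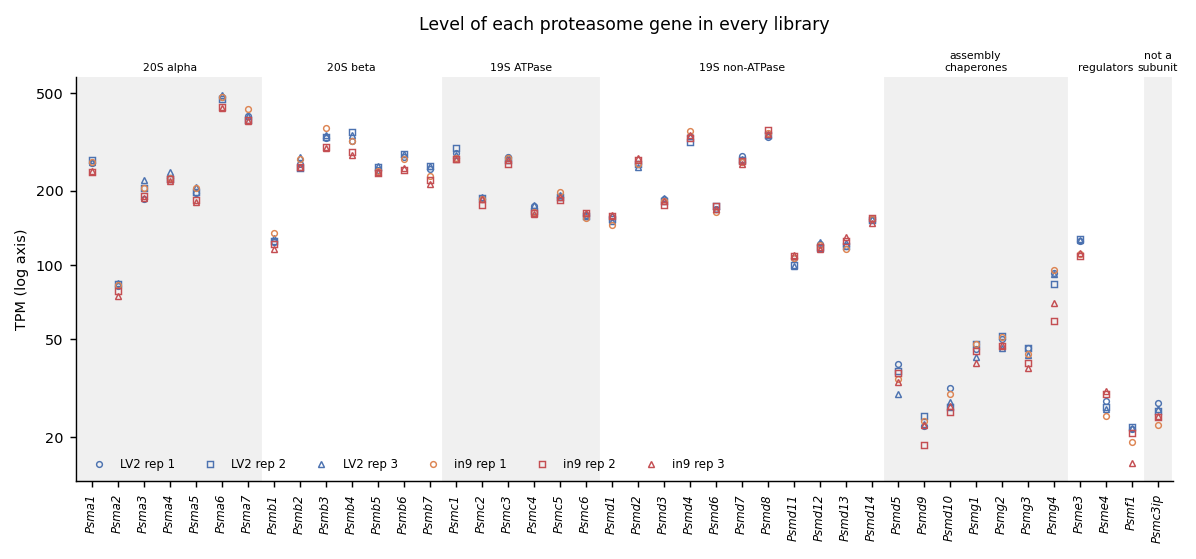
TPM of each member in every library on a log axis, grouped by role, with 1 symbol per library. Core and cap genes lie between about 75 and 490 TPM, and assembly chaperones, Psme4, Psmf1 and Psmc3ip lie below 100 TPM.

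The beta ring genes include those of the catalytic subunits Psmb6 (beta 1, cutting after acidic residues), Psmb7 (beta 2, after basic residues) and Psmb5 (beta 5, after hydrophobic residues). All 7 were negative (median log2 fold change -0.06), and 1 of the 7 turned positive after quantile normalization (Psmb2, 0.00 from -0.02). The catalytic genes were expressed at similar levels, and for each of the 3 the in9 libraries lay below the LV2 libraries. Psmb7 (chr2:38588036-38644087) was at 245, 252 and 252 TPM in LV2 and 231, 222 and 214 TPM in in9. Its groups did not overlap, and the log2 fold change was -0.17 ± 0.04 (SE, adjusted p = 0.116 in limma, and 0.0297 without in9 replicate 1). Psmb6 (chr11:70525367-70527858) was at 275, 282 and 284 TPM in LV2 and 269, 243 and 247 TPM in in9. The 3 in9 values were lower than each LV2 value, for a log2 fold change of -0.15 ± 0.05 (adjusted p = 0.182 in limma, and 0.0255 without in9 replicate 1). Psmb5 (chr14:54614119-54618022) was at 244, 251 and 252 TPM in LV2 and 241, 237 and 240 TPM in in9. That gap was narrow, with a log2 fold change of -0.06 ± 0.04 (adjusted p = 0.420 in limma, and 0.236 without in9 replicate 1). Annotated exons of Psmb7 overlap those of Nek6 on the opposite strand and those of Psmb5 overlap Mir686 on the same strand, and whether the authors counted by strand is not given in the sources used here.

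Among the structural beta genes Psmb4 had the most negative value. It was at 318, 347 and 337 TPM in LV2 and 320, 287 and 280 TPM in in9. In9 replicate 1 lay just above the lowest LV2 library, so the groups overlapped, and the log2 fold change was -0.18 ± 0.06 (adjusted p = 0.203 in limma, and 0.0348 without in9 replicate 1). Psmb3, the most abundant of the ring, was at 327, 331 and 336 TPM in LV2 and 361, 303 and 298 TPM in in9. Here in9 replicate 1 was the highest library of the 6 and in9 replicates 2 and 3 the lowest. Its log2 fold change was -0.05 ± 0.08, and -0.14 ± 0.03 without in9 replicate 1 (adjusted p = 0.0421 in limma). Psmb1, the least abundant, was at 125, 125 and 129 TPM in LV2 and 135, 122 and 116 TPM in in9, a log2 fold change of -0.02 ± 0.06. For Psmb2 the values were 259, 248 and 274 TPM in LV2 and 270, 251 and 249 TPM in in9. Both pairs of groups overlapped, and the signs of Psmb1 and Psmb2 turned when in9 replicate 3 was left out. The sign of Psmb2 turned without LV2 replicate 3 as well, to 0.018.

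The promoters of the members were searched because proteasome genes are known for shared antioxidant response elements. The core of that element, TGACNNNGC, was looked for on both strands from 250 bases before to 50 bases after each start site in RefSeq (GRCm38.p6), where 35 of 42 members had a window. It was present for 6 of the 35 (17.1%) and for 13.99% of the 27025 genes that had a promoter window. The CCAAT box, bound by NF-Y, was present for 13 of the 35 (37.1%) and for 41.1% of those genes. Neither motif was thus more than slightly commoner near members than near genes at large. The 6 matches to the element are printed on the strand of the gene with the match in capitals, read as TGACNNNGC for Psmb5, Psmb6 and Psmd9 and as its reverse complement for Psmc6, Psmd12 and Psme4. They lie at chr14:54618023-54618052 (Psmb5), chr11:70525338-70525367 (Psmb6), chr5:123228149-123228178 (Psmd9), chr14:45329587-45329616 (Psmc6), chr11:107479278-107479307 (Psmd12) and chr11:30771758-30771787 (Psme4).

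Psmb5: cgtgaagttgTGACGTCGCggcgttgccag

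Psmb6: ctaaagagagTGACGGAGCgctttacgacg

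Psmd9: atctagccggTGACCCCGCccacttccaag

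Psmc6: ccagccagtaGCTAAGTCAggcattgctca

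Psmd12: tctGCTGTGTCAcatttgcccccctcagac

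Psme4: cgctgcggctGCAGCGTCAccagaagagcc

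Relative to the start site the matches begin at -47 in Psmb5, -9 in Psmb6, -31 in Psmd9, -7 in Psme4, -227 in Psmc6 and -247 in Psmd12. The log2 fold changes of these 6 genes were -0.06, -0.15, -0.11, 0.07, 0.02 and -0.03 in that order, and none was called.

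The 6 ATPase genes of the cap, whose products unfold substrates and open the gate, differed little between groups. Of these, 5 had a negative log2 fold change and the median was -0.04. Psmc1, the most abundant, was at 286, 299 and 281 TPM in LV2 and 273, 269 and 270 TPM in in9. Its groups did not overlap, with a log2 fold change of -0.09 ± 0.04 (adjusted p = 0.267 in limma). Psmc4 (173, 166 and 175 TPM against 164, 163 and 162 TPM) and Psmc2 (186, 187 and 189 TPM against 185, 175 and 185 TPM) were also lower in each in9 library than in each LV2 library. Psmc6, the least abundant, was at 160, 158 and 158 TPM in LV2 and 156, 163 and 163 TPM in in9, and its log2 fold change of 0.02 ± 0.04 was -0.06 after trimmed-mean scaling. Psmc3 and Psmc5 had values of -0.04 and -0.01 with overlapping groups. Across the ring mean TPM spanned 1.75-fold, less than in the alpha ring.

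The 11 other cap genes were spread around 0, with 6 positive, 5 negative and a median of 0.01 (-0.07 after trimmed-mean scaling, with 1 positive). Psmd2, a scaffold and a docking site for ubiquitin-like domains, was at 258, 257 and 251 TPM in LV2 and 258, 268 and 273 TPM in in9. The lowest in9 library lay just above the highest LV2 library, for a log2 fold change of 0.06 ± 0.04 (adjusted p = 0.426 in limma). Psmd8, the most abundant of these genes, was at 332, 337 and 337 TPM in LV2 and 343, 355 and 342 TPM in in9, again without overlap, at 0.05 ± 0.04. After trimmed-mean scaling both were slightly negative, at -0.02 and -0.03. The ubiquitin receptor gene Psmd4 was at 335, 317 and 336 TPM in LV2 and 349, 329 and 338 TPM in in9, and its groups overlapped (0.04 ± 0.04, and -0.04 after trimmed-mean scaling). Psmd14, which encodes the deubiquitinase of the lid, was the most even member across libraries, at 153, 152 and 153 TPM in LV2 and 154, 155 and 148 TPM in in9. Its log2 fold change was -0.01 ± 0.04 (adjusted p = 0.955 in limma).

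Psmd11, a lid subunit gene and the least abundant of these, had the most positive value among all members. It was at 107, 100 and 99.3 TPM in LV2 and 106, 109 and 109 TPM in in9, with overlapping groups and a log2 fold change of 0.09 ± 0.05 (adjusted p = 0.357 in limma). Psmd7, another lid gene, had the most negative value of the cap genes outside the ATPase ring. It was at 277, 268 and 270 TPM in LV2 and 262, 264 and 257 TPM in in9, groups that did not overlap, at -0.06 ± 0.04 (adjusted p = 0.414 in limma). Psmd3 was below LV2 in each in9 library too, at -0.04. Values of Psmd1, Psmd6, Psmd12 and Psmd13 were 0.01, -0.01, -0.03 and 0.03 with overlapping groups.

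Genes of the assembly chaperones were less abundant, with a median of 42.9 TPM, and all 7 had a negative log2 fold change (median -0.06). Psmg1 to Psmg4 encode chaperones that build the alpha ring, and Psmd5, Psmd9 and Psmd10 encode chaperones of the ATPase ring. Psmg4 was at 92.4, 83.6 and 91.8 TPM in LV2 and 95.6, 59.3 and 69.9 TPM in in9. Its in9 replicate 1 was the highest of the 6 libraries and the other 2 in9 libraries the lowest. The log2 fold change was -0.28 ± 0.16 (adjusted p = 0.401 in limma), and -0.46 ± 0.09 (adjusted p = 0.0327) without in9 replicate 1. Psmd9, the least abundant, was at 22.2, 24.3 and 22.7 TPM in LV2 and 23.3, 18.6 and 22.3 TPM in in9 (-0.11 ± 0.09). Its value ran from -0.17 without in9 replicate 1 to -0.01 without in9 replicate 2. Psmg2 was at 49.98, 51.7 and 46.1 TPM in LV2 and 51.1, 46.8 and 47.4 TPM in in9, at -0.02 ± 0.06. It turned to 0.01 without LV2 replicate 2 and to 0.00 without in9 replicate 2. Psmg3, Psmd10, Psmg1 and Psmd5 had values of -0.15, -0.06, -0.04 and -0.02. Groups overlapped for all 7.

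The regulators included the member with the smallest p-value. Psme3 (chr11:101316213-101323537), which encodes the nuclear activator PA28 gamma, was at 125, 127 and 126 TPM in LV2 and 111, 109 and 112 TPM in in9. The 2 groups were tight and separate, and in9 replicate 1 lay with the other in9 libraries. Its log2 fold change of -0.18 ± 0.04 (SE), a ratio of mean TPM of 0.880, missed the threshold (adjusted p = 0.0789 in limma, from an unadjusted p of 0.00223). Across the alternatives the adjusted p ran from 0.0219 to 0.284, with 0.0351 without in9 replicate 1 and at most 0.281 without another library. Psmf1, the gene of the inhibitor PI31, was at 21.5, 22.0 and 21.7 TPM in LV2 and 19.2, 20.8 and 15.7 TPM in in9. All in9 values were below the LV2 values, but in9 replicate 3 was well below the other 2, for a log2 fold change of -0.23 ± 0.10 (adjusted p = 0.292 in limma) that was -0.12 without in9 replicate 3. Psme4, which encodes the activator PA200, was at 28.0, 26.4 and 26.1 TPM in LV2 and 24.3, 29.9 and 30.7 TPM in in9. In9 replicate 1 was the lowest of the 6 libraries and in9 replicates 2 and 3 the highest, at 0.07 ± 0.10, or -0.01 after trimmed-mean scaling. Psmc3ip, the member without a proteasome role, was at 27.6, 25.5 and 26.1 TPM in LV2 and 22.4, 24.1 and 24.3 TPM in in9 (-0.15 ± 0.06, adjusted p = 0.246 in limma). Leaving it out gave 9 positive of 41 and a median of -0.04.

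Genes outside the name rule whose products bind the proteasome were examined as a list of 10 tested genes. One was called lower and none higher, with 5 positive, 5 negative and a median of -0.02, beside 0.194% of all tested genes called lower and 0.821% higher. The one called was Usp14, which encodes a deubiquitinase that docks on the cap and trims ubiquitin chains. Usp14 was at 147, 143 and 143 TPM in LV2 and 110, 118 and 111 TPM in in9. The groups were far apart and in9 replicate 1 lay among the in9 libraries. It fell by 0.35 on the log2 scale (SE 0.04, adjusted p = 0.0351 in limma), to a ratio of mean TPM of 0.781. The call was kept after trimmed-mean scaling (adjusted p = 0.0281) and without in9 replicate 1 (0.0159), and was lost without any other single library (0.0813 to 0.181), without a filter on low values (0.0606) and without the intensity trend (0.0787). Ecpas, the gene of an adaptor that tethers core and cap, was at 31.3, 29.8 and 31.7 TPM in LV2 and 36.4, 39.9 and 36.1 TPM in in9, without overlap (0.27 ± 0.06, adjusted p = 0.0974 in limma, and 0.0495 without in9 replicate 1). The ubiquitin receptor gene Adrm1 was at 160, 156 and 153 TPM in LV2 and 152, 134 and 135 TPM in in9 (-0.15 ± 0.06, adjusted p = 0.236 in limma, and 0.0292 without in9 replicate 1). Without that library 1 gene of this list was called higher (Ecpas) and 3 lower (Usp14, Adrm1 and Sem1), beside 7.25% and 3.8% of all tested genes.

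**Figure D4:**
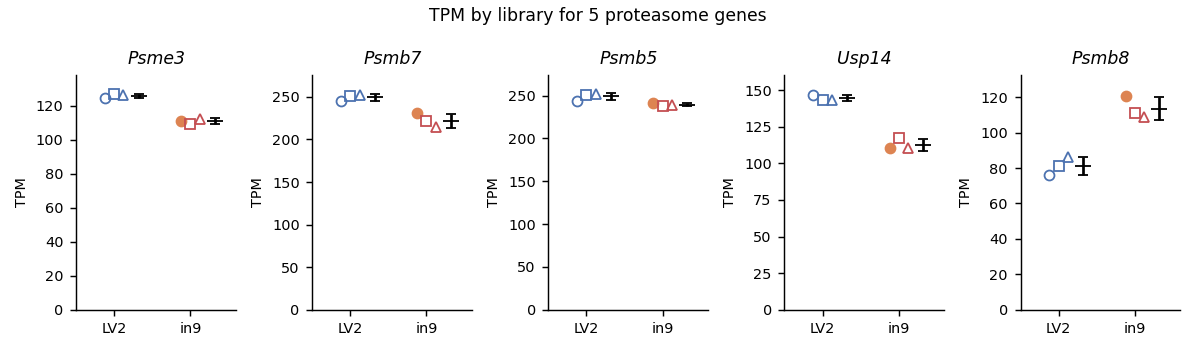
TPM by library of Psme3, Psmb7, Psmb5, Usp14 and Psmb8, with 1 point per library (in9 replicate 1 filled) and the mean ± SD of 3 libraries beside each group; axes start at 0. Psme3 and Usp14 lie lower and Psmb8 higher in each in9 library than in each LV2 library, while the gap for Psmb5 is narrow.

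Transcripts of the inducible catalytic subunits, which replace Psmb6, Psmb7 and Psmb5 in the immunoproteasome, were compared with their constitutive partners within each library. For every 100 TPM of Psmb5 there were 31.3, 32.3 and 34.1 TPM of Psmb8 in LV2 and 50.04, 46.7 and 45.4 TPM in in9. Psmb10 per 100 TPM of Psmb7 was 24.1, 20.2 and 19.1 TPM in LV2 and 26.6, 27.6 and 27.1 TPM in in9. Psmb9 was scarce, with 1.58, 2.01 and 2.04 TPM per 100 TPM of Psmb6 in LV2 and 3.17, 2.58 and 3.03 TPM in in9. All 3 ratios were higher in each in9 library than in each LV2 library, by 1.46-fold, 1.28-fold and 1.56-fold in the mean. The exact two-sided permutation test gave p = 0.10 for each, also when adjusted over the 3, which is the smallest p that 3 libraries against 3 allow. A ratio also rises when its constitutive partner is lower. Psmb10 alone had overlapping groups (0.20 ± 0.08, adjusted p = 0.252 in limma), with a ratio of mean TPM of 1.14 beside 0.890 for Psmb7. Psmb9 alone was at 0.43 ± 0.15 without overlap (adjusted p = 0.194 in limma). Among the 5 genes of the immunoproteasome and its activator, 1 was called higher and 0 lower, beside 0.821% and 0.194% of all tested genes. This was Psmb8 (0.48 ± 0.06, adjusted p = 0.0424 in limma, and 0.115 after trimmed-mean scaling, 0.0539 after quantile normalization, 0.0798 without a filter on low values, 0.0787 without the intensity trend and 0.113 to 0.190 without a library other than in9 replicate 1). Psme1, which encodes a subunit of the interferon-inducible activator PA28, had a log2 fold change of 0.25 ± 0.05 and missed the threshold (adjusted p = 0.0789 in limma, and 0.0306 without in9 replicate 1 and 0.0228 with library weights). Psme2, the gene of its partner subunit, was at 0.01 ± 0.10 with overlapping groups.

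Other genes of the ubiquitin system were read from lists in the same way. Among the ubiquitin genes, Rps27a, which encodes ubiquitin fused to a ribosomal protein, was at 996, 1131 and 1105 TPM in LV2 and 962, 742 and 730 TPM in in9. The groups did not overlap, and the log2 fold change of -0.42 ± 0.11 missed the threshold (adjusted p = 0.131 in limma). As for the summed core, in9 replicate 1 was nearest to LV2, and without it Rps27a was called lower (adjusted p = 0.0121 in limma). Of 7 shuttle factor genes, whose products carry ubiquitinated proteins to the proteasome, none was called and 2 were higher at an unadjusted p under 0.05, as were 13.6% of all tested genes. These were Nub1 (0.18 ± 0.05, adjusted p = 0.141 in limma, and 0.0367 without in9 replicate 1) and Ubqln2 (0.35 ± 0.10, adjusted p = 0.148). No gene was called among the ubiquitin-activating enzymes Uba1 and Uba6 (0.03 and 0.24), where 0 had an unadjusted p under 0.05. Uba6 ran from 0.14 without in9 replicate 3 to 0.41 without in9 replicate 1, where it was called higher (adjusted p = 0.0490 in limma), and Uba1 was -0.05 after trimmed-mean scaling. Of 10 genes of the unfoldase VCP and its cofactors none was called and none had an unadjusted p under 0.05, with 8 positive, where 63.7% of all tested genes were positive. Among them Ubxn1 was at 0.13 ± 0.06 and Vcp at 0.09 ± 0.04, and after trimmed-mean scaling Vcp was at 0.01 and the median of the list went from 0.09 to 0.02.

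Of 7 genes for transcription factors of proteasome genes and their processing, 1 was called higher and 0 lower. The shares of all tested genes were 0.821% and 0.194%. In this list 5 were positive and 2 negative, with a median of 0.08 that was 0.002 after trimmed-mean scaling. The gene called was Nfe2l2, which encodes NRF2. It rose from 47.5, 46.2 and 46.4 TPM in LV2 to 56.3, 59.5 and 59.2 TPM in in9 (0.31 ± 0.05, adjusted p = 0.0453 in limma). The adjusted p was 0.0702 after trimmed-mean scaling, 0.0702 without a filter on low values, 0.0836 without the intensity trend and 0.121 to 0.207 without a library other than in9 replicate 1. Nfe2l1, the gene of NRF1, was at 103, 105 and 106 TPM in LV2 and 112, 110 and 114 TPM in in9. Its groups did not overlap, at 0.09 ± 0.04 (adjusted p = 0.257 in limma) and 0.02 after trimmed-mean scaling.

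Gene length moved with the log2 fold change over the whole table and over the members. Spearman's rho between length and log2 fold change was 0.35 across the 42 members and 0.18 across all 13406 tested genes, and 0.48 and 0.25 without in9 replicate 1. These are descriptions across genes, which share the same 6 libraries and are not independent replicates. The median length was 899 bases for the beta ring genes, 1201 for the alpha ring genes, 1683 for the ATPase genes and 1626 for the other cap genes, against 2513.5 over all tested genes. Among genes from 1000 to under 1500 bases the median log2 fold change was -0.07 for 15 members and 0.01 for all 1453 tested genes. Under 1000 bases it was -0.06 for 7 members and -0.02 for 2226 tested genes, and from 1500 to under 3000 bases -0.04 for 17 members and 0.05 for 4375 tested genes. For 3000 bases and over it was 0.01 for 3 members and 0.09 for 5352 tested genes. The part of length, of transcript composition and of the library that stood apart in these differences was not tested.

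**Figure D5:**
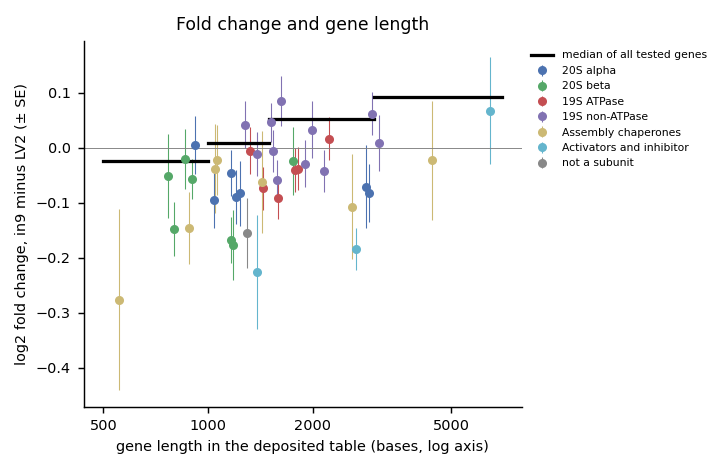
Log2 fold change (in9 minus LV2, ± SE from limma) of each member against gene length on a log axis, coloured by role; black lines are medians of all tested genes under 1000 bases, from 1000 to under 1500, from 1500 to under 3000 and from 3000 bases up. Most members lie under the line of their length class, where the medians run from -0.02 for the shortest to 0.09 for the longest genes.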

How the data were processed

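Messenger RNA of 4T1 cells was sequenced on an Illumina platform, per the labels' protocols. The authors deposited TPM values per gene, each library summing to the same total; the genome was mm10, per the submitters' processing notes, while the sources used here give no aligner, quantifier or annotation. Deposited group means equalled the means of the libraries within 3.33e-05 TPM, and 0 pairs of libraries were identical. Counts were not used, so no interval for counting error is given.

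Members and gene lists were chosen with earlier results of these data known. The 13406 genes whose mean reached 1 TPM were fitted as log2(TPM + 1) in R 4.3.3 by limma 3.58.1, using its intensity trend and no replicate block. P-values were two-sided, adjusted by Benjamini-Hochberg over all tested genes, and called under 0.05. Named were the catalytic subunits, regulators, Psmd2, Psmd4 and Psmd14, the extremes of each role class in level and fold change, called genes, and for other lists those with the smallest p; Psmb10, Psme2, Adrm1, Sem1 and members beyond these were named after their values were seen, and Psmb7-ps2 was the 1 excluded pseudogene above 0 (0.21 TPM in 1 library). Annotated exons of 11 members overlap another gene (GENCODE M21), and processed copies elsewhere could share reads. The relation with gene length was examined after the data were seen. The fit was tested on simulated data with independent normal errors for each gene. That setting held no library that stands apart from its group, so it does not cover the case of in9 replicate 1. Tables used python 3.11.15, pandas 2.3.3, numpy 2.4.6 and scipy 1.17.1. Alternatives were a pseudocount of 0.1, no filter, a minimum of 5 TPM, scaling by trimmed means (30% trimmed by ratio, 5% by level), quantile normalization, no mitochondrial transcripts, no trend, library weights, a replicate block and leaving out each library. Some genes of the marker and companion lists are not reported here.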

Additional observations from a re-analysis of the deposited data

How the results depend on the processing

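No member was called higher under any alternative, and members called lower numbered 0 except with library weights (4) and without in9 replicate 1 (8). Members lower at an unadjusted p under 0.05 numbered 5, and 11 with trimmed-mean scaling or library weights, 2 without the trend or with the replicate block, and 2 to 12 without 1 library; higher ones numbered 0, 2 with library weights and 0 to 2 without 1 library. Positive members numbered 9, 1 after trimmed-mean scaling (median -0.12) and 9 to 12 without 1 library (median -0.06 to -0.03). Over all genes 110 were higher and 26 lower. There were 24 and 6 without a filter, 150 and 45 at a minimum of 5 TPM, 48 and 24 (66.7% higher against 80.9%) after trimmed-mean scaling, 27 and 4 without the trend, 1166 and 523 with library weights, and 6 to 971 and 1 to 509 without 1 library.

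With the replicate block 1 gene was higher and 1 lower over all genes, and Usp14, Psmb8 and Nfe2l2 were no longer called (adjusted p = 0.234, 0.234 and 0.235). Deviations of same-numbered libraries from their group means correlated at -0.10, 0.02 and -0.05, and those of differently numbered ones at -0.06 to 0.10. With 3 libraries in each group such values cannot decide whether the numbers pair the libraries.

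The sign turned after trimmed-mean scaling for Psma7 (-0.074), Psmc6 (-0.062), Psmd2 (-0.017), Psmd4 (-0.037), Psmd8 (-0.033), Psme4 (-0.0090) and Uba1 (-0.046), after quantile normalization for Psmb2 (0.00498), without mitochondrial transcripts for Psmd14 (0.014) and with library weights for Psma7 (-0.019). It also turned without 1 library for Psma7 (range -0.045 to 0.034), Psmb1 (-0.083 to 0.024), Psmb2 (-0.058 to 0.018), Psmd14 (-0.017 to 0.014) and Psmg2 (-0.069 to 0.013). The cause was not tested. The immunoproteasome ratios (1.56, 1.28 and 1.46) ran from 1.44 to 1.65, 1.22 to 1.38 and 1.42 to 1.49 without 1 library. The summed TPM difference of members was -255.7, and -381.5 to -187.8 without 1 library. Depth is unknown, so no limit from counting can be set for low genes such as Psmb9 or Psmf1.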
